A study of Mus musculus with 15 samples.

Results

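The genes described here mark the walls of blood vessels in the brain: 29 genes of endothelial cells, which line the vessel and form the blood-brain barrier, and 9 genes of mural cells, the pericytes and smooth muscle cells that wrap it. They were taken by symbol from a fixed list of 38, and all 38 were present among the 15569 genes measured. The tissue was striatum, the main entry station of the basal ganglia, taken on postnatal day 14 from C57Bl/6J pups whose mothers had been exposed to aerosols while pregnant, and its RNA was sequenced. The 15 libraries comprise 3 from paraquat exposure, 4 from titanium dioxide (TiO2), 4 from the mixture of paraquat and titanium dioxide, and 4 controls labelled untreated. Paraquat is a redox-cycling herbicide and titanium dioxide a common white particle additive. The labels give no dose, sex or litter and name no pup behind a library, and a p-value here speaks only to the spread among these libraries, which may be technical.

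Endothelial cells of the brain are joined by tight junctions, carry transporters that let nutrients in and push drugs out, and take up little by vesicles. Their growth and stability depend on the VEGF and angiopoietin receptors, on TGF-beta signalling through endoglin, and on transcription factors of the ETS and SoxF families. Pericytes, recruited through the PDGF receptor beta, share the basement membrane with the endothelium and are needed for the barrier to form and to hold.

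Values are normalised read counts: reads per gene over a library-specific size factor, as the authors deposited them. The libraries held between 8690925 and 14207513 reads in genes, and paraquat library 3 was the only one above 9804609. Every one of the 38 genes was detected in every library, at 13.2 to 2622 normalised read counts, against a floor of 3 reads that was worth 1.98 to 3.25. Every fold change refers to log2(value + 1), and the added 1 makes changes of low genes look smaller. Fold changes are given with their standard error (SE) or 95% interval from a limma model over all 15 libraries. A gene counts as called where its p, adjusted by Benjamini and Hochberg over all 15556 tested genes, was under 0.05.

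Most vessel-wall genes were not called in any exposure, and 3 were: the SoxF factor Sox18, the TGF-beta co-receptor endoglin (Eng) and the adhesion molecule Vcam1. Against control, 2 of the 38 genes were called in paraquat pups, Sox18 higher and Vcam1 lower, where 10.4% of all genes were called, 6.34% higher and 4.06% lower. In TiO2 pups 2 of 38 were called, Sox18 and Eng, both higher, where 6.4% of all genes were called, 4.3% higher and 2.1% lower. In mixture pups 1 of 38 was called, Vcam1, which was lower, where 1.19% of all genes were called, 1.12% higher and 0.0707% lower. The shares of 5.26%, 5.26% and 2.63% rest on 1 or 2 genes each, and in paraquat and TiO2 pups they are not above those of all genes. In paraquat pups 3 of the 38 genes (7.89%) had every library above or every library below all controls, against 21.2% of all genes. In TiO2 pups it was 2 (5.26%, against 12.5%) and in mixture pups 1 (2.63%, against 7.75%). The 3 comparisons share the 4 control libraries and are therefore not independent of each other.

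For most of the 38 genes the data bound the change to within 1.5-fold of control. This bound does not separate called from uncalled genes. It also held the intervals of Vcam1 in paraquat (0.703 to 0.89-fold) and mixture pups (0.718 to 0.893-fold), and the called Eng change in TiO2 pups was 1.39-fold. The 95% interval of the fold change lay wholly within 1.5-fold of control for 28 of 38 genes in paraquat pups (73.7%, against 64.3% of all genes tested), for 31 in TiO2 pups (81.6%, against 71.4%) and for 33 in mixture pups (86.8%, against 75.8%). The median log2 fold change of the 29 endothelial genes was -0.047 in paraquat, 0.040 in TiO2 and 0.020 in mixture pups. That of the 9 mural genes was 0.077, 0.067 and 0.064 in the same order, and that of all genes tested was -0.007, -0.010 and -0.009.

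**Figure D1:**
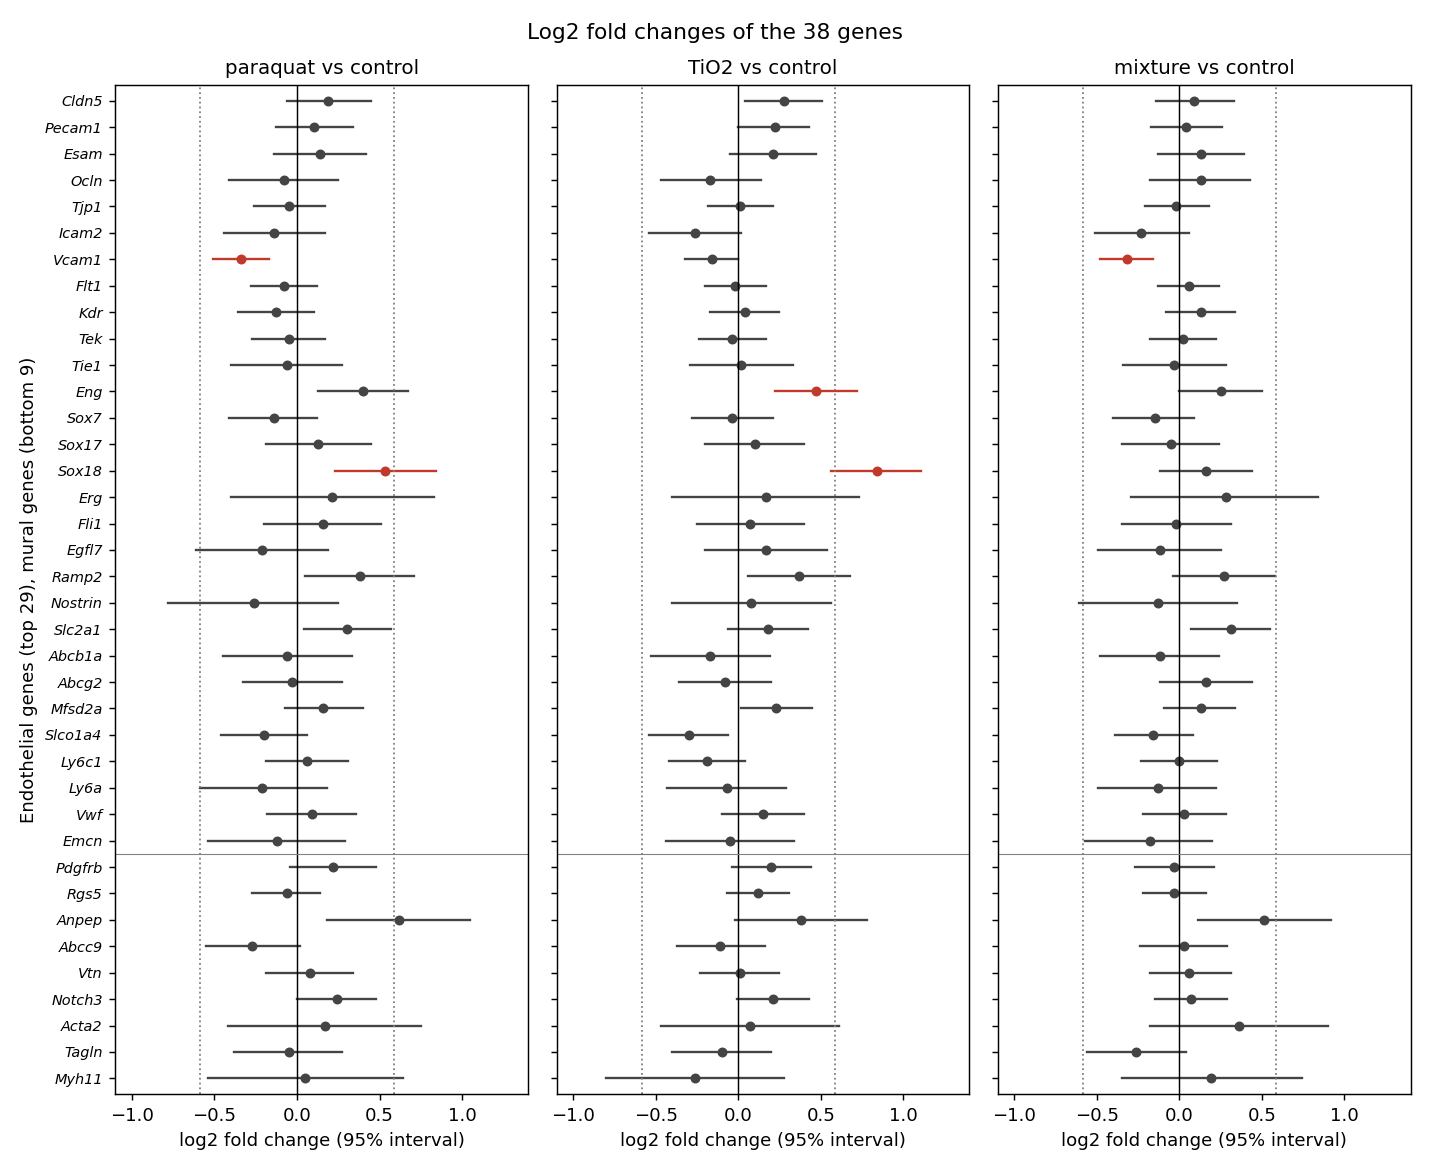
Log2 fold change against control of each of the 38 genes (points) with its 95% interval (lines) for paraquat, TiO2 and the mixture; genes called at an adjusted p under 0.05 are red and dotted lines mark 1.5-fold. Red points are Sox18 and Vcam1 in paraquat, Sox18 and Eng in TiO2 and Vcam1 in the mixture, and 28, 31 and 33 of the intervals lie within the dotted lines.

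Sox18, a transcription factor of the SoxF family that acts in endothelial cells of growing blood and lymph vessels, was the vessel gene that moved furthest in TiO2 pups. Its normalised read count was 265, 275, 340 and 261 in TiO2 pups, 214, 200 and 282 in paraquat pups, 187, 219, 176 and 135 in mixture pups and 134, 165, 177 and 161 in control pups. All TiO2 and all paraquat libraries were above all controls, while the mixture libraries overlapped them. Sox18 rose in TiO2 pups by 0.84 ± 0.14 on the log2 scale (SE; 1.78-fold; limma adjusted p = 0.000567). It rose in paraquat pups by 0.53 ± 0.15 (SE; 1.45-fold; limma adjusted p = 0.0234). In mixture pups the log2 fold change was 0.16, with a 95% interval of -0.12 to 0.44 (limma adjusted p = 0.705). In RNA of a whole tissue, more cells of a type and more RNA per cell cannot be told apart.

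The paraquat call of Sox18 was lost without the third paraquat library (log2 fold change 0.38, limma adjusted p = 0.138), without the first control library (0.45, 0.0766) and when the trend with GC content was removed from each library (0.28, 0.195). The TiO2 call held in all 26 alternative analyses, with limma, edgeR or DESeq2 adjusted p between 1.83e-06 and 0.00428. Sox18 lies on chromosome 2 (181669836 to 181671640, minus strand, mm10), and at 60.9% its transcript has the highest GC content of the 38 genes, whose median is 50.9%.

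The other SoxF genes did not pass the test in any exposure. Sox7 had log2 fold changes of -0.14 in paraquat, -0.04 in TiO2 and -0.15 in mixture pups, and Sox17 had 0.13, 0.10 and -0.05 in the same order. Their TiO2 intervals ran from -0.28 to 0.21 for Sox7 and from -0.20 to 0.40 for Sox17, beside 0.56 to 1.11 for Sox18; the difference between the genes was not tested.

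Endoglin, which binds TGF-beta family ligands beside their receptors on endothelial cells, also rose in TiO2 pups. Eng had 690, 703, 1002 and 674 normalised read counts in TiO2 pups, 700, 618 and 863 in paraquat pups, 647, 686, 736 and 548 in mixture pups and 512, 556, 610 and 510 in control pups. Every TiO2 and every paraquat library exceeded every control, and the lowest mixture library lay within the control range. The TiO2 rise was 0.47 ± 0.12 on the log2 scale (SE; 1.39-fold; limma adjusted p = 0.0224). In paraquat pups the log2 fold change was 0.40 ± 0.13 (SE; limma adjusted p = 0.0536) and in mixture pups 0.25 ± 0.12 (SE; limma adjusted p = 0.405).

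One library weighs on the Eng call: without TiO2 library 3, which held 1002, the log2 fold change was 0.34 (limma adjusted p = 0.0826). The call was also lost without the first control library (limma adjusted p = 0.0755) or control library 4 (0.07). The paraquat value was just outside the threshold and was called in 9 of 26 alternatives, among them edgeR (adjusted p = 0.0481) and DESeq2 (adjusted p = 0.0279) on the reads recovered from the table. Over the alternatives its adjusted p ranged from 0.0153 to 0.244. The paraquat log2 fold change was 0.27 without paraquat library 3 (limma adjusted p = 0.244) and 0.22 with the GC trend removed (0.215). Eng lies on chromosome 2 (32646595 to 32682669, plus strand, mm10) and shares 61 bases with Fpgs on the other strand. Fpgs averaged 29.7 in paraquat, 28.4 in TiO2, 25.5 in mixture and 36.9 normalised read counts in control pups, far below the counts of Eng in every group.

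The promoters of Eng and of Flt1, a VEGF receptor that was not called in any exposure, are shown because both carry the ETS letters AGGAAG read on either strand (CTTCCT on the other), in capitals. They span 250 bases before to 50 after the start and come from RefSeq on GRCm38.p6, written 5′ to 3′ on the gene's strand, at chr2:32646345-32646644 (plus) for Eng and chr5:147725962-147726261 (minus) for Flt1.
Eng: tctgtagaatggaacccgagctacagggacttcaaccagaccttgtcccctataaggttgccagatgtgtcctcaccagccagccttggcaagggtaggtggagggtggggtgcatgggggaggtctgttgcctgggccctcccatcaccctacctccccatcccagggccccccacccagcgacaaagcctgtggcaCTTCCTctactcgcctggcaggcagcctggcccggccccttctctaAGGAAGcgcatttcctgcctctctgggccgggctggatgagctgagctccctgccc
Flt1: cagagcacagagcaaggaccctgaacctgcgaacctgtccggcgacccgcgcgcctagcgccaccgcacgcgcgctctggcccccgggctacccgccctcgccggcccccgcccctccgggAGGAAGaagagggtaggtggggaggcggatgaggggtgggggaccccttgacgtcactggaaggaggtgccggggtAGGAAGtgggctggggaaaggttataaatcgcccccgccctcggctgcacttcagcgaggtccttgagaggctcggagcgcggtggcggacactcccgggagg
In Eng the letters begin 52 and 6 bases before the start, and in Flt1 129 and 53 bases before it. Promoters were matched for 24 of the 38 genes, 32 promoters in all, and 14 of these (43.8%) held the ETS letters, against 35.4% of 32851 mouse promoters of the same length. The SOX letters ACAAT, searched on both strands, stood in 6 of the 32 (18.8%), against 31% of all promoters. Eng and Flt1 were picked for holding the ETS letters, so the pair cannot compare called with uncalled genes. The matched promoters of Cldn5 and Kdr, also uncalled, did not hold them, and for Sox18 and Vcam1 no promoter was matched. A match in letters is not a measured binding site.

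**Figure D2:**
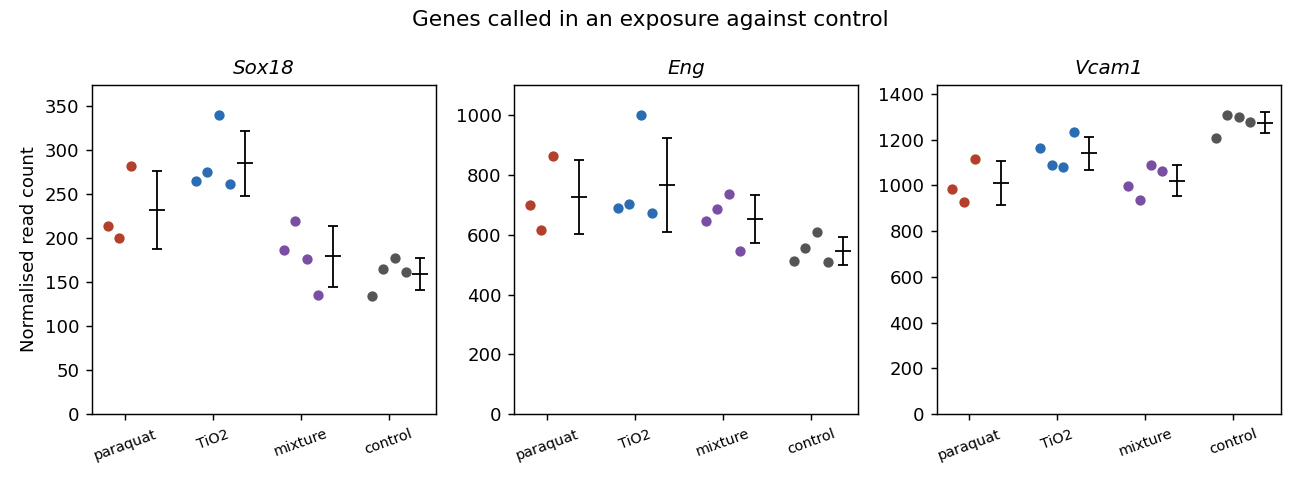
Normalised read count (y axis, from 0) of Sox18, Eng and Vcam1 in each library (points) by exposure, with the group mean and SD (bars; n = 3 for paraquat, n = 4 for the other groups). Sox18 is 261 to 340 in TiO2 pups, all above the control range of 134 to 177, while Vcam1 is lower than every control in all paraquat and mixture libraries.

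Vcam1, the adhesion molecule by which leukocytes settle on an inflamed vessel wall, fell in paraquat and in mixture pups. It is also made by astrocytes and neural stem cells in the mouse brain. Its normalised read count was 982, 929 and 1117 in paraquat pups, 1163, 1089, 1079 and 1233 in TiO2 pups, 996, 937, 1087 and 1063 in mixture pups and 1209, 1308, 1299 and 1279 in control pups. Every paraquat and every mixture library was below every control, and 1 TiO2 library lay within the control range. Vcam1 fell by 0.34 on the log2 scale in paraquat pups (SE 0.08; limma adjusted p = 0.0122) and by 0.32 in mixture pups (SE 0.08; limma adjusted p = 0.0373). In TiO2 pups the log2 fold change was -0.16, with a 95% interval of -0.32 to -0.00 (limma adjusted p = 0.205).

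Both Vcam1 calls lay near the threshold. The paraquat call was lost without the first or the second paraquat library (limma adjusted p = 0.0523 and 0.0515) and with the GC trend removed (log2 fold change -0.23, adjusted p = 0.0702). The mixture call was lost when any 1 mixture or control library or the second TiO2 library was left out, with limma adjusted p of 0.0522 to 0.135, while the log2 fold change stayed between -0.35 and -0.28. Vcam1 was 1 of 11 genes called lower in mixture pups among 15556 (0.0707%). It lies on chromosome 3 (116109949 to 116129688, minus strand, mm10).

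Of the 7 junction and adhesion genes, the other 6 were not called in any exposure. Claudin 5 (Cldn5), the main claudin of brain endothelial tight junctions, had 313, 318 and 444 normalised read counts in paraquat pups, 358, 370, 367 and 407 in TiO2 pups, 345, 357, 360 and 268 in mixture pups and 279, 365, 305 and 294 in control pups. The TiO2 libraries were in the upper part of the range, but 1 of them lay below the highest control. The log2 fold change of Cldn5 was 0.19 in paraquat, 0.28 in TiO2 (95% interval 0.04 to 0.51; limma adjusted p = 0.138) and 0.09 in mixture pups. Pecam1, an adhesion molecule of endothelial cell borders, had 330, 329 and 446 in paraquat pups, 388, 399, 369 and 422 in TiO2 pups, 320, 379, 405 and 303 in mixture pups and 329, 369, 348 and 313 in control pups. The lowest TiO2 library and the highest control were level at 369, and the TiO2 log2 fold change was 0.22 (95% interval -0.00 to 0.43; limma adjusted p = 0.215). Occludin (Ocln) and the junction scaffold Tjp1 had log2 fold changes between -0.17 and 0.13, and the adhesion genes Esam and Icam2 between -0.26 and 0.21.

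**Figure D3:**
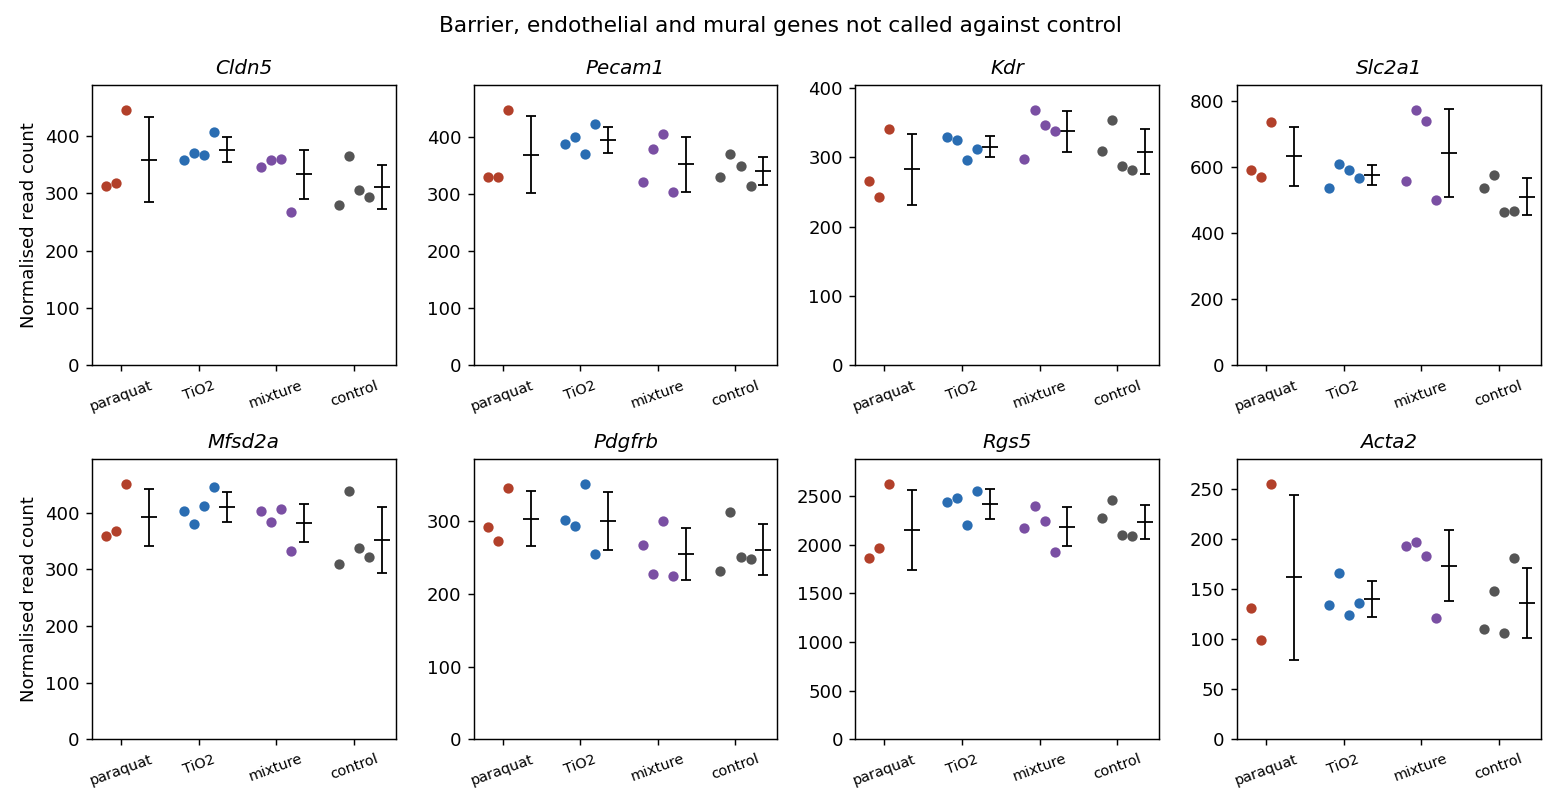
Normalised read count (y axis, from 0) of 8 barrier, endothelial and mural genes that were not called against control, in each library (points), with the group mean and SD (bars; n = 3 for paraquat, n = 4 for the other groups). The third paraquat library is the highest of its group in all 8 panels, for example 444 for Cldn5 against 313 and 318.

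None of the VEGF and angiopoietin receptors Kdr, Flt1, Tek and Tie1 was called. Kdr, the main VEGF receptor for vessel growth, had 265, 242 and 340 normalised read counts in paraquat pups, 329, 324, 296 and 311 in TiO2 pups, 297, 367, 346 and 337 in mixture pups and 309, 353, 287 and 281 in control pups. Its groups overlapped, with log2 fold changes of -0.13, 0.04 and 0.13 in paraquat, TiO2 and mixture pups. Flt1 had log2 fold changes of -0.08, -0.02 and 0.06, and all 3 intervals lay between -0.28 and 0.24. The angiopoietin receptor Tek had the lowest spread of all, with a coefficient of variation of 5.84% over the 15 libraries, and log2 fold changes of -0.05, -0.04 and 0.02. Its partner Tie1 had log2 fold changes between -0.06 and 0.02.

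The other genes of this group were not called either. Ramp2, which joins the calcitonin receptor-like receptor to form the adrenomedullin receptor, had 271, 240 and 388 normalised read counts in paraquat pups, 263, 300, 294 and 313 in TiO2 pups, 288, 236, 341 and 235 in mixture pups and 182, 209, 285 and 238 in control pups. The groups overlapped, and its log2 fold changes were 0.38 (limma adjusted p = 0.133), 0.37 (0.135) and 0.27 (0.496) in paraquat, TiO2 and mixture pups. The ETS factor Erg had the widest spread, with a coefficient of variation of 31.3%, so its paraquat interval ran from -0.40 to 0.83. The ETS factor Fli1, the secreted vessel protein Egfl7 and Nostrin, which moves nitric oxide synthase inside the cell, had log2 fold changes between -0.26 and 0.17.

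None of the 5 transport genes was called. Slc2a1, the glucose transporter of the barrier, had 592, 569 and 735 normalised read counts in paraquat pups, 537, 609, 590 and 568 in TiO2 pups, 558, 771, 738 and 499 in mixture pups and 537, 575, 463 and 468 in control pups. The ranges overlapped, and the log2 fold changes were 0.30 in paraquat (limma adjusted p = 0.124), 0.18 in TiO2 (0.376) and 0.31 in mixture pups (0.247). Mfsd2a, the lipid transporter that carries docosahexaenoic acid into the brain and keeps vesicle transport low, had 359, 367 and 450 in paraquat pups, 403, 379, 412 and 445 in TiO2 pups, 402, 383, 406 and 333 in mixture pups and 310, 438, 337 and 321 in control pups. The second control library stood above most exposed ones, and the TiO2 log2 fold change was 0.23 (limma adjusted p = 0.178). Without that control library it was 0.34 (limma adjusted p = 0.0294), where all genes called in TiO2 pups went from 996 to 1397.

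Slco1a4, an uptake carrier for organic anions, had 254, 284 and 306 normalised read counts in paraquat pups, 234, 251, 235 and 337 in TiO2 pups, 246, 327, 304 and 286 in mixture pups and 361, 340, 278 and 317 in control pups. In TiO2 pups 3 libraries were below every control and library 4 was not, and the log2 fold change was -0.30 (limma adjusted p = 0.116). Without TiO2 library 4 it was -0.42 (limma adjusted p = 0.0191), where all genes called in TiO2 pups went from 996 to 1264. The drug efflux pumps Abcb1a and Abcg2 had log2 fold changes between -0.17 and 0.16 over the 3 exposures. The 4 other surface genes, Ly6c1, Ly6a, Emcn and the clotting protein gene Vwf, had values between -0.21 and 0.15, and none was called.

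None of the 6 pericyte and 3 smooth muscle genes was called in any exposure. Pdgfrb, the receptor that recruits pericytes, had 292, 273 and 346 normalised read counts in paraquat pups, 302, 293, 351 and 255 in TiO2 pups, 267, 228, 301 and 225 in mixture pups and 232, 313, 251 and 248 in control pups. The ranges overlapped, and the log2 fold changes were 0.22, 0.20 and -0.03. Rgs5, a regulator of G protein signalling and the most abundant of these genes, had 1864, 1971 and 2622 in paraquat pups, 2441, 2481, 2204 and 2554 in TiO2 pups, 2168, 2401, 2248 and 1929 in mixture pups and 2274, 2459, 2102 and 2087 in control pups. Its log2 fold changes were -0.06, 0.12 and -0.03.

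Anpep, the aminopeptidase N of pericytes, had the largest fold change against control among the uncalled genes. It had 46.6, 49.7 and 63.2 normalised read counts in paraquat pups, 41.5, 32.5, 48.2 and 60.7 in TiO2 pups, 54.5, 41.2, 55.1 and 46.3 in mixture pups and 29, 31, 48.9 and 30.5 in control pups. The third control library stood apart from the other 3 controls and reached into the range of every exposure. The log2 fold change was 0.62 ± 0.21 in paraquat (SE; limma adjusted p = 0.0617), 0.38 in TiO2 (0.248) and 0.51 in mixture pups (0.253). The paraquat value passed the threshold without the third control library (0.79; limma adjusted p = 0.0225).

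The remaining mural genes were not called. Notch3, the Notch receptor of mural cells, had log2 fold changes of 0.24, 0.21 and 0.07 in paraquat, TiO2 and mixture pups. Vitronectin (Vtn), a matrix protein made by pericytes, and Abcc9, a subunit of a potassium channel of pericytes, had values between -0.27 and 0.08. Without paraquat library 3 the paraquat value of Abcc9 was -0.48 (limma adjusted p = 0.0318). Acta2, the actin of contractile cells, had 131, 99.4 and 255 in paraquat pups, 134, 166, 124 and 136 in TiO2 pups, 193, 197, 183 and 121 in mixture pups and 110, 148, 106 and 181 in control pups. The paraquat libraries covered the whole range of the other groups, and the paraquat interval ran from -0.42 to 0.75. The smooth muscle genes Tagln and Myh11 had values between -0.26 and 0.19.

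Directly between exposures, none of the 38 genes was called. Mixture against TiO2 had 2 of 38 genes at an unadjusted limma p under 0.05, beside 1768 of all 15556 genes tested. By limma adjusted p, 0% of all genes were called. The quasi-likelihood test of edgeR called 0 of the 38 there and 0 of all genes. DESeq2 called 1 of the 38, Sox18, where it called 54 of the 8318 genes to which it gave an adjusted p (0.649%). The Sox18 difference of mixture minus TiO2 was -0.68 ± 0.14 on the log2 scale (SE; 0.625-fold), with a limma adjusted p of 0.141 and a range of 0.00917 to 0.298 over the alternatives. Mixture against paraquat had 3 of 38 genes at an unadjusted limma p under 0.05, beside 2235 of all 15556. There limma called 0.00643% of all genes by adjusted p. Of the 38, edgeR called 0 and DESeq2 0, where they called 1 and 125 of all genes. Paraquat against TiO2 had 2 of 38 genes at an unadjusted limma p under 0.05, beside 997 of all 15556. There limma called 0% of all genes by adjusted p. Of the 38, edgeR called 0 and DESeq2 0, where they called 0 and 9 of all genes.

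The interaction asked whether the mixture differed from the sum of its single exposures, taken on the log2 scale as mixture plus control, less paraquat and less TiO2. It called 2 of the 38 genes, Sox18 and Eng, both lower than the sum, where 11.8% of all genes were called, 5.41% higher and 6.36% lower. Sox18 was lower than the sum by an interaction of -1.21 ± 0.20 (SE; limma adjusted p = 0.00105), and it was called in all 25 alternatives that allow this contrast. For Eng the interaction was -0.62 ± 0.18 (SE; limma adjusted p = 0.0289), and it was lost with the GC trend removed (-0.37; 0.13) and without any of 6 single libraries. These values use the same libraries as the comparisons with control.

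Some libraries stood at the extremes of many vessel genes at once. Paraquat library 3, the deepest, was the highest of all 15 for 15 of the 38 genes (39.5%), against 10.6% of all genes. Mixture library 4 was the lowest for 9 of 38 (23.7%), against 6.63% of all genes, and the second paraquat library for 8 (21.1%), against 5.61%. For the 9 mural genes, the median log2 difference from the control mean was 0.09, -0.19 and 0.41 in the 3 paraquat libraries and -0.16, 0.15, -0.05 and -0.01 in the 4 controls. The spread within paraquat was thus wider than its distance from control, and the mural median of 0.077 became 0.292 when the second paraquat library was left out. The part of these library-wide differences in any result was not tested.

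**Figure D4:**
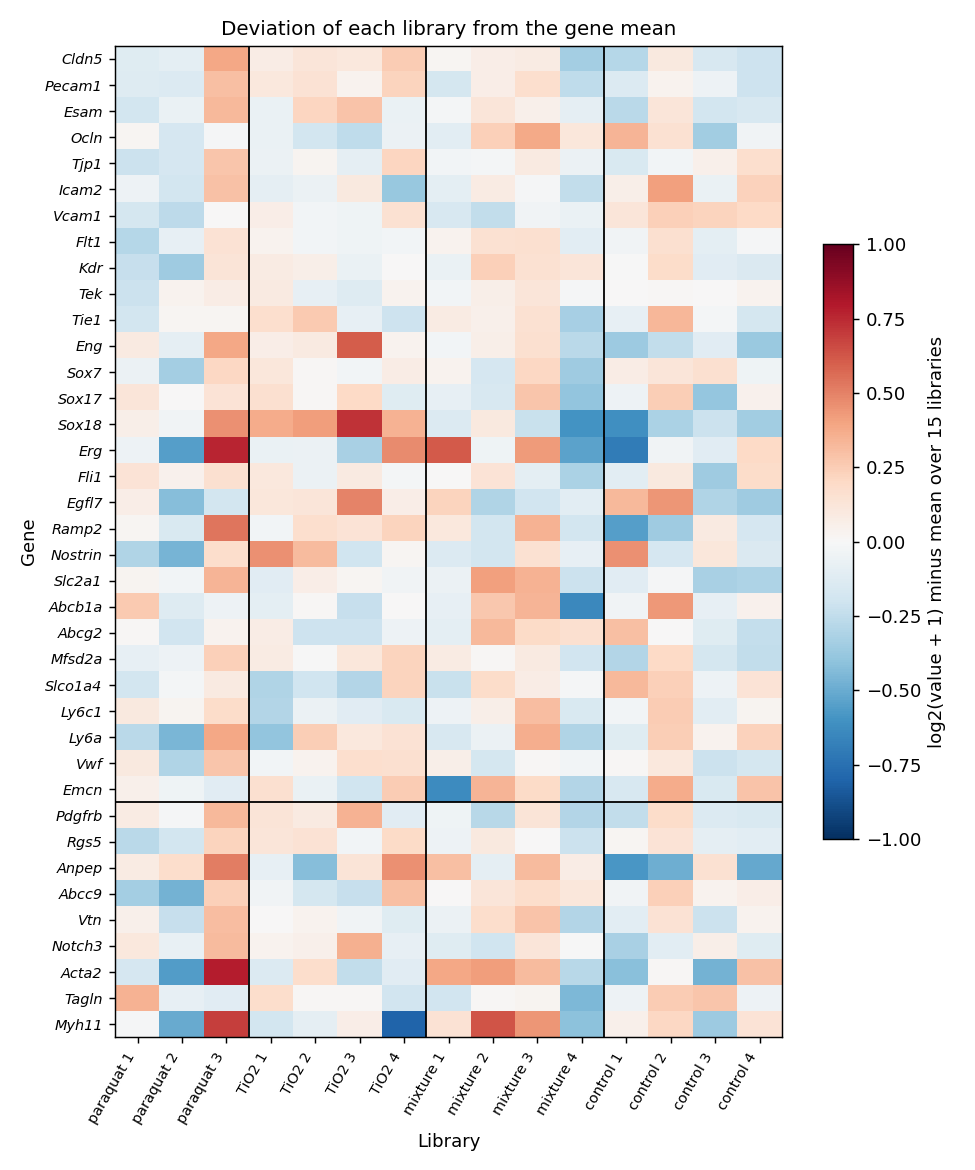
Colour gives, for each of the 38 genes (rows, 29 endothelial above the line and 9 mural below it) and each of the 15 libraries (columns), log2(value + 1) minus the gene's mean over the libraries. The third paraquat column is red for most genes, the mixture 4 column is blue for most, and the TiO2 columns are red in the Sox18 line.

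Per kilobase of the longest annotated transcript, the genes covered a wide range of levels. Rgs5 was highest at 550 normalised read counts per kilobase over the 15 libraries, followed by Vcam1 at 322, Tjp1 at 272 and Cldn5 at 242. The smooth muscle myosin Myh11 was lowest at 3.96. When the genes were ordered by their control mean instead, 32 of the 37 neighbouring pairs overlapped in range over the control libraries. The 5 that did not were Rgs5 and Vcam1, Vcam1 and Tjp1, Ly6a and Pecam1, Pdgfrb and Abcc9, and Anpep and Myh11. The classes were not ordered by level. The smooth muscle genes Acta2 (74.9) and Tagln (51) were below Rgs5, Cldn5 and Slc2a1 (180). Tagln was in turn above the pericyte genes Notch3 (39.1), Abcc9 (36.2) and Anpep (11.9). It was also above the barrier genes Ocln (17.3), Abcb1a (15.1) and Abcg2 (14.7).

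**Figure D5:**
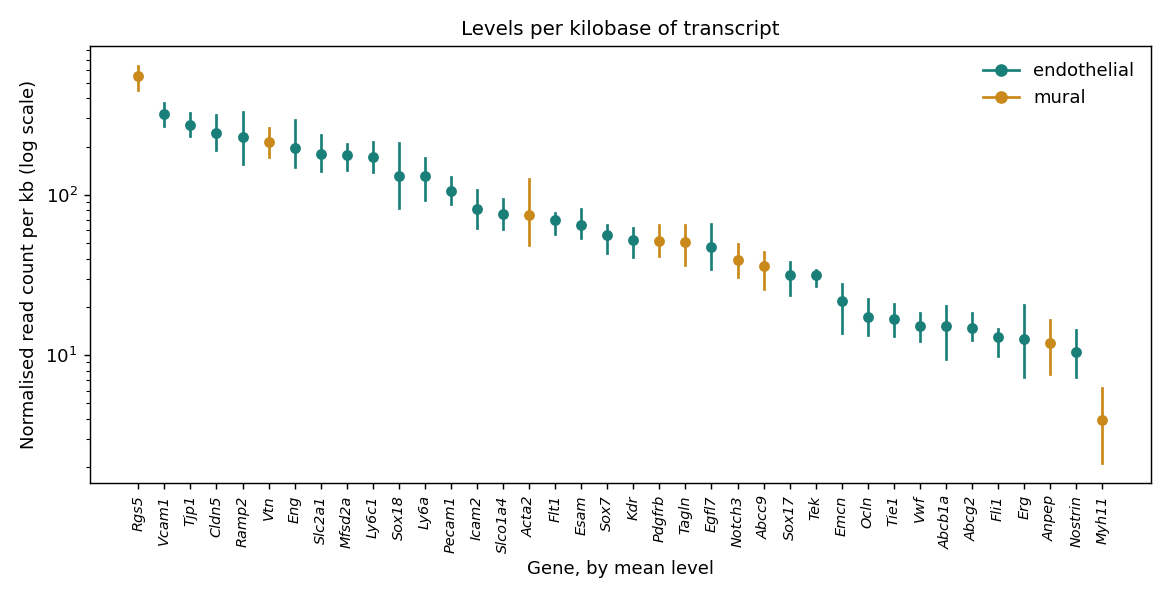
Normalised read count per kilobase of transcript (log axis) of each gene, ordered by its mean over the 15 libraries (points), with lines from the lowest to the highest library. Rgs5 is highest at 550 and Myh11 lowest at 3.96, and most neighbouring lines overlap.

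Other genes of the same pathways were read from longer lists. The counts in this and the next paragraphs stand beside the shares called over all genes. These were 10.4% in paraquat (6.34% higher, 4.06% lower), 6.4% in TiO2 (4.3% higher, 2.1% lower) and 1.19% in mixture pups. Each list is short, so its share rests on few genes. Of 22 VEGF, angiopoietin and TGF-beta genes tested, 3 rose and 0 fell in paraquat pups, 2 rose and 0 fell in TiO2 pups, and 0 were called in mixture pups. Tgfb1, a ligand of the TGF-beta receptors, rose by 0.68 on the log2 scale in paraquat pups (limma adjusted p = 0.0128) and by 0.80 in TiO2 pups (0.00301). Vegfb, a ligand of Flt1, rose by 0.57 (limma adjusted p = 0.0201) and 0.58 (0.0137), and the co-receptor Nrp2 by 0.69 in paraquat pups (0.00732). With the GC trend removed, Tgfb1 lost its paraquat call (limma adjusted p = 0.145) and Vegfb both of its calls (0.192 in paraquat and 0.058 in TiO2 pups). Without paraquat library 3 the paraquat calls of Tgfb1, Vegfb and Nrp2 were lost (limma adjusted p = 0.0929, 0.126 and 0.0625). None of 11 Notch genes was called in any of the 3 exposures.

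Of 19 genes of the Wnt pathway that maintains the barrier, 1 rose (Nkd1) and 1 fell (Ctnnb1) in paraquat pups, 1 fell (Ctnnb1) in TiO2 pups and 0 were called in mixture pups. Ctnnb1, which encodes beta-catenin, fell by 0.32 in paraquat (limma adjusted p = 0.0157) and by 0.27 in TiO2 pups (0.0312). Of 35 further endothelial genes, 2 rose and 1 fell in paraquat pups, 2 rose in TiO2 pups and 0 were called in mixture pups. The ETS factor gene Ets1 rose by 0.37 in paraquat (limma adjusted p = 0.025) and by 0.38 in TiO2 pups (0.0187). The lipid transfer gene Pltp rose by 0.70 (limma adjusted p = 0.016) and 0.66 (0.017), and both calls were lost with the GC trend removed (0.0739 in paraquat and 0.0563 in TiO2 pups). The calls of Ctnnb1, Ets1 and Pltp in both exposures were each lost without at least 1 single library.

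Of 19 further barrier transport genes, 1 fell in paraquat pups, 1 rose and 1 fell in TiO2 pups and 0 were called in mixture pups. Slco1c1, the thyroid hormone carrier of brain vessels and astrocytes, fell by 0.45 in paraquat (limma adjusted p = 0.00327) and by 0.30 in TiO2 pups (0.0296), and the TiO2 call was lost with the GC trend removed (0.138). Of 26 further mural genes, 1 rose and 3 fell in paraquat pups, 3 rose and 1 fell in TiO2 pups and 0 were called in mixture pups. In TiO2 pups the myosin light chain gene Myl9 rose by 0.54 (limma adjusted p = 0.00689) and the pericyte and fibroblast gene Cd248 by 0.73 (0.0105). Over these 6 lists, 3 of 24 calls held in every alternative (Tgfb1 and Myl9 in TiO2 and Slco1c1 in paraquat pups), 12 were lost with the GC trend removed and 21 were lost without at least 1 single library. No set of genes was tested as a set.

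Markers of other cells in the tissue moved with the exposures, and their part in the results was not tested. Of 8 oligodendrocyte markers, 7 were called higher in paraquat, 2 in TiO2 and 0 in mixture pups, and their summed normalised read count was 84193 to 97556 in paraquat, 52678 to 82864 in TiO2, 45591 to 79121 in mixture and 38349 to 57015 in control pups. Of 10 markers of medium spiny neurons, the main cells of striatum, 5 were called lower in paraquat and 2 in TiO2 pups, and their sum was 56990 to 64912, 61244 to 67852, 57009 to 67387 and 67030 to 72945 in paraquat, TiO2, mixture and control pups. Of 9 cortical neuron markers, 3 were called higher in paraquat and 0 in TiO2 and mixture pups, and the sum was 1441 to 5319, 929 to 2510, 2250 to 4223 and 575 to 1339 in the same order. No marker of these 3 lists was at 0 in any library.

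Markers of cells that touch the vessel were also read. Of 9 astrocyte markers, 2 were called higher in paraquat and 3 in TiO2 pups, and their sum was 49016 to 59866 in paraquat, 54803 to 58854 in TiO2, 48750 to 59970 in mixture and 49411 to 55584 in control pups. Of 12 microglia and macrophage markers, 1 was called higher in TiO2 pups and 0 in the other exposures, and the sum was 5243 to 6182, 5779 to 6052, 4980 to 5643 and 5253 to 6347 in the same order. For 10 perivascular fibroblast genes, 1 rose in paraquat (Igf2), 0 were called in TiO2 and 1 rose in mixture pups (Col1a1, by 0.80; limma adjusted p = 0.0206), and both calls were lost without some single libraries (limma adjusted p up to 0.16 for Igf2 and 0.0907 for Col1a1). The 4 blood cell genes and the 4 choroid plexus genes in the table were not called in any exposure.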

How the data were processed

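The libraries were made with a total RNA SENSE kit and sequenced on a NextSeq500, per the labels' protocols. Reads were handled with Bowtie2 2.3.2.2 and DESeq2 2.1.8.3 on mm10, per the submitters' processing notes; what counted the reads, on which annotation and strand, and how genes were filtered is not given in the sources used here. The deposited table holds signal values, which the authors made by dividing read counts by a size factor per library. All values were whole multiples of 1 read's worth (100% within a tolerance of 0.001), so reads were recovered. In 4 of 15 libraries (paraquat 1, TiO2 3 and 4, mixture 1) that worth is close to 1, so rescaling cannot be seen from the steps alone.

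Genes passing edgeR's low-count filter (15556, with 13 dropped) were tested with limma 3.58.1 on log2(value + 1) in 1 model over all libraries, with Benjamini-Hochberg adjustment. The model was tested on counts simulated gene by gene without library-wide differences. That test cannot speak to errors under the library-wide differences of these data. On the recovered reads, edgeR 4.0.16 called 1813 genes in paraquat, 996 in TiO2 and 166 in mixture pups against control; DESeq2 1.42.0 was another alternative (R 4.3.3). Symbols were matched to GENCODE M21 (all 15569). Within groups no libraries agreed within counting noise. The genes named are those called against control, the uncalled ones with the smallest p-values, and marker genes fixed by name. The genes and lists were chosen with earlier results of these data known.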

Additional observations from a re-analysis of the deposited data

Results flagged for a closer look

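In 5 of 114 gene and group combinations of 4 libraries, 1 library stood apart from the others by Dixon's test; chance gives about 1 in 20, here 5.7. Cldn5 was 268 in mixture library 4, where the other mixture libraries held 345 to 360. Eng was 1002 in TiO2 library 3, where the others held 674 to 703, and Egfl7 was 91.3 in the same library, where the others held 67.6 to 70.2. Slco1a4 was 337 in TiO2 library 4, where the others held 234 to 251. Anpep was 48.9 in control library 3, where the others held 29 to 31.

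The difference between the mixture and the sum of its single exposures passed the test for 2 of the 38 genes (5.26%). It passed for 11.8% of all genes, 5.41% higher and 6.36% lower. The limma interactions were -1.21 for Sox18 and -0.62 for Eng on the log2 scale. Without TiO2 library 3, which stood apart for Eng, the Eng interaction was -0.48 (limma adjusted p = 0.0518).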

How the results depend on the processing

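Of 4120 values of single genes recomputed under the 26 alternatives, 4069 kept their side of the threshold, 28 lost the call and 23 gained one. Among called values 0 reversed in direction, while 169 of the 4069 were uncalled and changed sign. The number of the 38 genes called in paraquat pups, 2, became 4 with the replicate block, 0 with the GC trend removed and 0 with both, where all genes called went to 1482, 1242 and 1234, against 1617. With 1 library left out it ranged from 1 to 4, and all genes called from 665 to 2017. When 1 library was left out, the count in TiO2 pups ranged from 1 to 3, and all genes called from 467 to 1397, against 996. In mixture pups the count ranged from 0 to 1, and all genes called from 52 to 261, against 185. For mixture against TiO2 the count of 0 became 1 with DESeq2, 1 with the replicate block and 1 with GC trend and block together. All genes called there went to 54, 5 and 27 in the same order, against 0. The interaction count of 2 became 1 with the GC trend removed and 1 with both, where all genes called went to 1136 and 1216, against 1832. Over the libraries left out it ranged from 1 to 4, and all genes called from 883 to 2313. The cause was not tested. The replicate block fits the library numbers, and the labels do not say whether these pair the samples. Same-numbered libraries correlated at -0.186 to 0.271 in their deviations from group means, 8 of 21 pairs over 0.1. Of the 15 libraries, 4 correlated best with a library of their own number. The analysis limited to the groups compared could not be fitted to the interaction. The number of libraries, 3 or 4 per group, limits the precision, and the floor of 3 reads covers counting error only, as no molecular identifiers are named in the labels.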
